A study of Saccharomyces cerevisiae with 24 samples.

Results

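Polyphosphate synthesis and phosphate signalling in the budding yeast Saccharomyces cerevisiae were followed through 10 genes, on both strands, in strains that lack or alter the machinery of histone H2B ubiquitylation. The genes were VTC1 (YER072W), VTC2 (YFL004W), VTC3 (YPL019C), VTC4 (YJL012C), VTC5 (YDR089W), PHO81 (YGR233C), SPL2 (YHR136C), PHO86 (YJL117W), PHM6 (YDR281C) and PHM8 (YER037W). They were chosen by name and locus identifier, with no measured value in the rule, but with earlier results of these data known. They are 10 of the 6571 genes in the deposited count tables. All 10 passed the low-count filter for sense reads, and 8 passed it for antisense reads. RNA was sequenced from 24 cultures, 3 for each of 8 strains, grown in rich YPD medium to log phase.

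Every strain was MATa and carried the his3Δ200, lys2-128Δ, ura3-52 and trp1Δ63 alleles. In the tagged background, rtf1-108-110AAA (called rtf1-AAA below) carried 3HA-rtf1-108-110AAA with RAD6-13xMYC::KanMX, rad6-R6Q carried 3xHA-RTF1 with rad6-R6Q-13xMyc::KanMX, and rad6-R6A,M10A carried 3xHA-RTF1 with rad6-R6A,M10A-13xMyc::KanMX. The strain called rad6Δ tagged had 3xHA-RTF1 with rad6Δ::KanMX, so its only tag was on Rtf1. Their wild type, WT tagged, had 3xHA-RTF1 with RAD6-13xMYC::KanMX. Without tags, H2B-K123R carried the K123R substitution in both H2B genes (HTA1-htb1K123R HTA2-htb2-K123R), rad6Δ untagged carried rad6Δ::KanMX, and WT untagged carried none of these alleles. Each group was a single strain by its label, so the named alleles and anything else that strain carries cannot be told apart. The labels call the 3 libraries of a group biological replicates and do not say how the cultures were set up, so p-values measure the spread between those cultures.

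Polyphosphate is a chain of phosphate residues that yeast stores in its vacuole. It is made by the VTC complex, in which Vtc4 is the polymerase, Vtc1 a small membrane subunit, Vtc2 and Vtc3 alternative partner subunits and Vtc5 a subunit that stimulates synthesis. Pho81 inhibits the cyclin-dependent kinase Pho80-Pho85 when phosphate is scarce, which lets the transcription factor Pho4 enter the nucleus and bind promoters at the letters CACGTG or, more weakly, CACGTT. Spl2 dampens low-affinity phosphate uptake, Pho86 is needed for the transporter Pho84 to leave the endoplasmic reticulum, and Phm8 is a phosphatase that frees phosphate from nucleotides. The role of Phm6 is not known. Rad6 is the ubiquitin-conjugating enzyme for a single lysine (K123) of H2B, and Rtf1, a subunit of the Paf1 complex, stimulates that reaction.

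The stretches that hold these letters are shown because the members differ in how many of them lie upstream, from 4 at SPL2 to none at VTC5. They were read from the RefSeq R64 genome, in the 500 bases before each gene's annotated start, 5′ to 3′ on the gene's own strand. Capitals mark CACGTG, which is its own reverse complement, or AACGTG, which is CACGTT read from the other strand.
VTC1, chrV:302637-302666, plus strand: aatagatattagCACGTGtctcggagagaa
VTC2, chrVI:131487-131516, plus strand: gaaaaaaaaaccCACGTGctgcttggaaat
VTC3, chrXVI:517279-517375, minus strand: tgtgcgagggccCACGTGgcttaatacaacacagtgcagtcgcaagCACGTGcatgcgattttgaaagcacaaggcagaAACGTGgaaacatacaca
VTC4, chrX:413501-413530, minus strand: catccgCACGTGgctgcaCACGTGaatgaa
PHO81, chrVII:958537-958566, minus strand: caggtgttatggCACGTGcgaataagggca
SPL2, chrVIII:375444-375473, minus strand: agtatttttgctCACGTGaccgacaagggt
SPL2, chrVIII:375230-375259, minus strand: aaatgatgtacgCACGTGggcgaaagttca
SPL2, chrVIII:375173-375202, minus strand: tctctcttttccCACGTGctccgctctctt
SPL2, chrVIII:375114-375143, minus strand: agtcactgcagcCACGTGcctagatctatt
PHO86, chrX:192329-192358, plus strand: ccagcgcgcccgCACGTGctctttatggaa
PHM6, chrIV:1022583-1022612, minus strand: gagcttcgctgaCACGTGggaggtgggata
PHM8, chrV:225602-225631, plus strand: aaagggggcagcAACGTGcttcacatacaa
SPL2 held 4 CACGTG sites, the most of any member, and VTC3 and VTC4 held 2 each. In VTC3 the sites began 345 and 311 bases before the start, and in VTC4 they began 125 and 113 bases before it. PHM8 held only the AACGTG form, 275 bases before its start, and VTC5 held neither motif in this window. Further CACGTT or AACGTG letters lay at 8 bases before the start of PHO81, 496 before PHO86 and 434 before PHM6, and are not printed. Counting both strands, CACGTG occurred in 8 of the 10 member windows (80%), against 6.23% of 6000 windows of the same length over the genome. For CACGTT the share was 5 of 10 (50%), against 16%. No printed site overlapped another, and a match is a description of sequence, not of binding.

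The genes lie on 7 chromosomes in R64. VTC1 is at chrV:302806-303195, VTC2 at chrVI:131810-134296, VTC3 at chrXVI:514511-517018, VTC4 at chrX:411234-413399 and VTC5 at chrIV:622112-624721. PHO81 is at chrVII:954674-958210, SPL2 at chrVIII:374654-375100, PHO86 at chrX:192531-193466, PHM6 at chrIV:1022007-1022321 and PHM8 at chrV:225889-226854. These spans run over the annotated gene, and no member has a near-identical copy (at least 90% identity over at least 50% of its length), so reads are not split between copies.

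Library totals were 7227245 to 10782960 counts on the sense strand and 411344 to 611282 on the antisense strand, and K. lactis cells mixed in before extraction gave 1051104 to 1591505 counts. Levels are given as CPM, each gene's count relative to the TMM-scaled sense total of its library, so each is a share of the RNA in the whole culture, and fewer expressing cells and less RNA per cell cannot be told apart. RAD6 itself was at 0 or 1 count in each rad6Δ tagged library and at 0 in each rad6Δ untagged library. It was at 151 ± 9.87 CPM in rad6-R6A,M10A, 126 ± 18.3 CPM in rad6-R6Q, 98.8 ± 31.9 CPM in rtf1-AAA and 69.3 ± 1.57 CPM in H2B-K123R, with 55.8 ± 5.88 CPM in WT untagged and 49.7 ± 6.12 CPM in WT tagged for comparison (SD, n = 3), and every library of these 4 mutants was above every wild-type library. Fold changes are log2 values with their standard error (SE), a change is called at a Benjamini-Hochberg adjusted p under 0.05 in edgeR's quasi-likelihood test over all 5790 sense genes, and "rose" and "fell" are used only of called changes. Against its own wild type, RAD6 rose in rad6-R6A,M10A, at log2 1.61 (adjusted p = 2.04e-06), rad6-R6Q, at 1.34 (adjusted p = 1.27e-05), and rtf1-AAA, at 0.99 (adjusted p = 0.000335). The H2B-K123R change of 0.31 ± 0.17 (SE, adjusted p = 0.196) was not called.

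WT untagged had the highest mean level of 8 of the 10 genes, VTC5 and PHM8 being the exceptions. Its libraries did not overlap those of the next group for VTC2, VTC3, VTC4, PHO81 and PHM6. How many of all genes share either trait was not counted. Between the wild types, 0 members were higher and 7 were lower in WT tagged than in WT untagged, where 0.345% of all genes were higher and 0.328% were lower. Between the deletions no member was called in either direction in rad6Δ tagged against rad6Δ untagged, with 0.207% of all genes higher and 0% lower by edgeR's quasi-likelihood test and 249 of 5790 genes at an unadjusted p under 0.05. Among the members only VTC1 had an unadjusted p under 0.05, and DESeq2 called 0 members.

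Against its own wild type, rad6Δ untagged showed 0 members that rose and 9 that fell, where 22.3% of all genes rose and 20.5% fell. H2B-K123R showed 0 that rose and 8 that fell, against 14% and 12.3% of all genes. Both used the WT untagged libraries, so their values share those 3 cultures. In the tagged background the counts were small. In rad6Δ tagged 1 member rose and 1 fell, where 21.5% of all genes rose and 20.2% fell. With the replicate number as a block 5 members were called, the added ones being VTC2, VTC3 and VTC4, all lower. The all-gene shares given here are those of the fit without the block. That count of 5 was not set against the share of all genes called with the block. In rad6-R6A,M10A 1 rose and 1 fell (12% and 13.2% of all genes), in rad6-R6Q 2 rose and 1 fell (14.6% and 14.5%), and in rtf1-AAA 0 rose and 1 fell (11.9% and 12.6%). These 4 comparisons share the WT tagged libraries. The median log2 fold change over the 10 members was -1.49 in rad6Δ untagged and -0.83 in H2B-K123R, beside 0.00 and -0.01 over all genes, and between 0.00 and 0.36 in the 4 tagged mutants.

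The difference between the RAD6 deletion effects in the tagged and untagged backgrounds was tested directly as an interaction. It was called for 4 members, all with a higher value in the tagged background, and for 0 in the other direction, where 0.225% of all genes were higher and 0.0518% lower. The 4 were VTC1 at 2.72 ± 0.46 (SE, adjusted p = 0.0245), VTC4 at 1.23 ± 0.25 (SE, adjusted p = 0.034), PHO81 at 1.43 ± 0.28 (SE, adjusted p = 0.033) and PHM6 at 2.52 ± 0.44 (SE, adjusted p = 0.0245). VTC3 differed by 2.10 ± 0.50 (SE, adjusted p = 0.0951), which was not called, but was with the replicate block, at 2.13 (adjusted p = 0.000642), with the compared groups only, at 2.09 (adjusted p = 0.0251), and by DESeq2, at 2.09 (adjusted p = 0.019). The VTC1 call was lost without either rad6Δ untagged replicate 2 or 3, rad6Δ tagged replicate 2, WT untagged replicate 1 or else WT tagged replicate 3, at 2.29 to 2.76 (adjusted p = 0.0675 to 0.0959), and the PHM6 call without either rad6Δ untagged replicate 2 or 3, rad6Δ tagged replicate 2, WT untagged replicate 1 or else WT tagged replicate 3, at 2.33 to 2.61 (adjusted p = 0.0675 to 0.13). The VTC4 call was lost without either rad6Δ untagged replicate 1, 2 or 3, rad6Δ tagged replicate 2 or 3, WT untagged replicate 1 or else WT tagged replicate 2 or 3, at 1.05 to 1.26 (adjusted p = 0.0602 to 0.136), and the PHO81 call without either rad6Δ untagged replicate 1, 2 or 3, rad6Δ tagged replicate 2 or 3, WT untagged replicate 1 or else WT tagged replicate 1 or 3, at 1.19 to 1.5 (adjusted p = 0.0602 to 0.13).

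**Figure D1:**
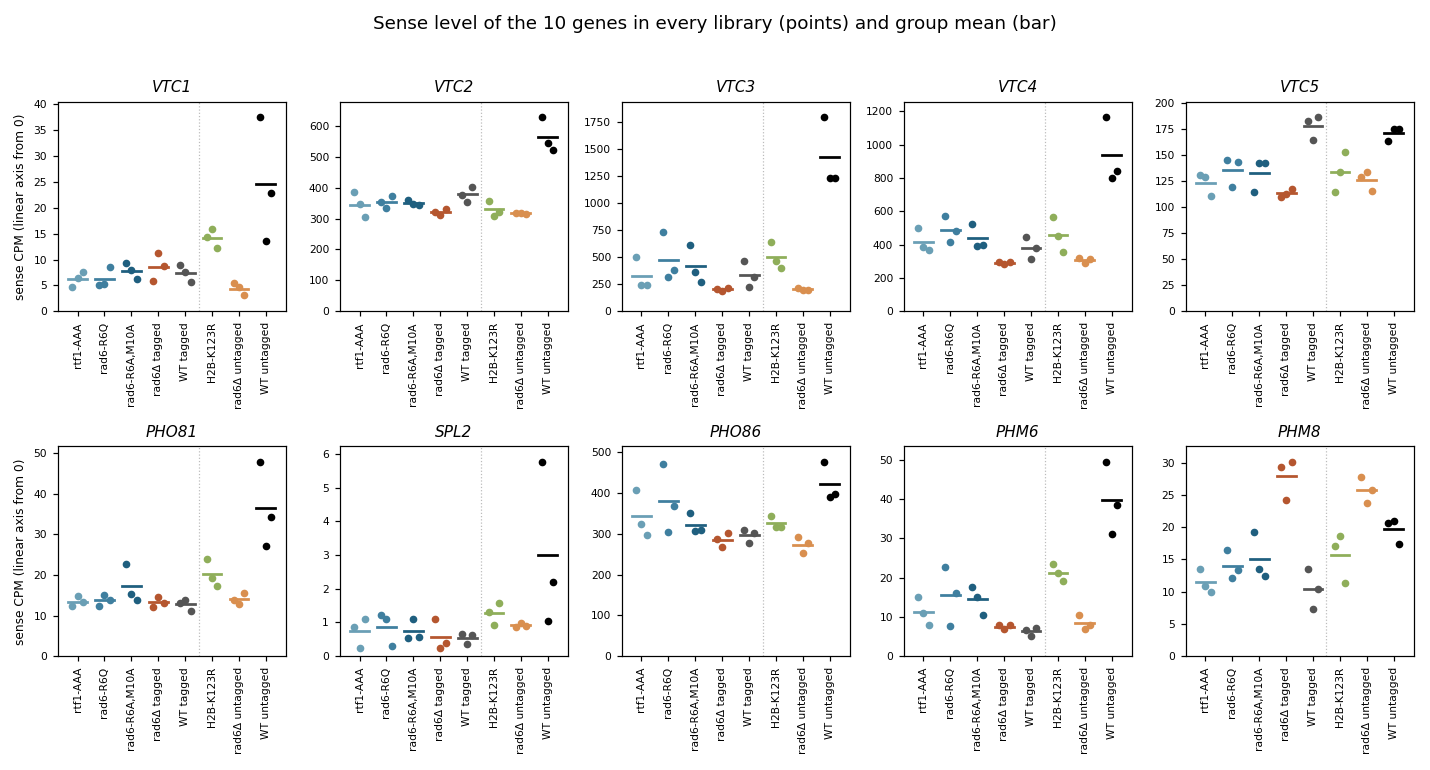
Sense level of each of the 10 genes in CPM (vertical axes, linear, from 0) in every library (points, 3 per strain) with the group mean as a bar; a dotted line separates the tagged strains from the untagged ones. WT untagged, at the far right, stands highest in 8 panels, while VTC5 is highest in both wild types and PHM8 in both rad6Δ strains.

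VTC3, one of the alternative partner subunits, had the widest range of the VTC genes in CPM and, per length, the largest level among them in WT untagged. Its levels were 219.7, 199.7 and 196 CPM in rad6Δ untagged and 641, 462 and 397 CPM in H2B-K123R, against 1795, 1236 and 1235 CPM in WT untagged. The 3 groups did not overlap, and the 3 rad6Δ untagged libraries lay within a narrow band at the bottom. VTC3 fell in rad6Δ untagged, by a log2 fold change of -2.79 ± 0.37 (SE, adjusted p = 7.87e-06), and in H2B-K123R, at log2 -1.51 ± 0.35 (SE, adjusted p = 0.00381). In the tagged background it stood at 210.2, 191 and 218 CPM in rad6Δ tagged, 617, 366 and 273 CPM in rad6-R6A,M10A, 736, 321 and 378 CPM in rad6-R6Q and 501, 246 and 242 CPM in rtf1-AAA, against 461, 226 and 319 CPM in WT tagged. All 3 rad6Δ tagged libraries were below all 3 WT tagged ones, while the substitution strains overlapped them. None of the 4 was called against WT tagged, with -0.70 ± 0.35 (SE, adjusted p = 0.119) for rad6Δ tagged and 0.51 ± 0.35 (SE, adjusted p = 0.295) for rad6-R6Q. With the replicate number as a block the rad6Δ tagged value was -0.62 (adjusted p = 0.0152), and with the compared groups only -0.69 (adjusted p = 0.0257), both called.

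VTC3 was lower in WT tagged than in WT untagged, at log2 -2.09 ± 0.36 (SE, adjusted p = 0.00582), with no overlap, and was not called without WT tagged replicate 3, at -2.05 (adjusted p = 0.0554). The deletions differed by 0.01 for rad6Δ tagged against rad6Δ untagged, with a 95% interval of -0.68 to 0.70. Against the deletion of their own background, VTC3 was higher in H2B-K123R, at log2 1.29 ± 0.35 (SE, adjusted p = 0.0263), and in rad6-R6Q, at log2 1.21 ± 0.35 (SE, adjusted p = 0.0259). The rad6-R6Q call was lost without either rad6-R6Q replicate 1 or else rad6Δ tagged replicate 1, 2 or 3, at 0.75 to 1.22 (adjusted p = 0.0546 to 0.184), the smallest value being the one without its replicate 1. The H2B-K123R call was lost without either H2B-K123R replicate 1 or else rad6Δ untagged replicate 2 or 3, at 1.06 to 1.27 (adjusted p = 0.0695 to 0.0864).

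VTC4, the polymerase subunit, spanned a smaller range. It was at 317, 289 and 311 CPM in rad6Δ untagged and 564, 449 and 357 CPM in H2B-K123R, against 1165, 799.7 and 839 CPM in WT untagged. None of these groups overlapped, and VTC4 fell in rad6Δ untagged, at log2 -1.61 ± 0.18 (SE, adjusted p = 3.26e-07), and in H2B-K123R, at log2 -1.03 ± 0.18 (SE, adjusted p = 0.000156). Tagged strains had 297, 286 and 294 CPM in rad6Δ tagged, 524, 392 and 396 CPM in rad6-R6A,M10A, 572, 413 and 479 CPM in rad6-R6Q and 497, 387 and 365 CPM in rtf1-AAA, against 447, 316 and 377 CPM in WT tagged. The rad6Δ tagged libraries were all below the WT tagged ones, and those of the substitution strains overlapped them. The rad6Δ tagged change was -0.38 ± 0.17 (SE, adjusted p = 0.0871) and the rad6-R6Q change 0.36 ± 0.17 (SE, adjusted p = 0.127), neither of them called. With the replicate block both were called, at -0.36 (adjusted p = 0.0143) and 0.36 (adjusted p = 0.0193). The rad6Δ tagged change was also called with the compared groups only, at -0.37 (adjusted p = 0.0244), and without WT tagged replicate 2, at -0.49 (adjusted p = 0.0407), and the rad6-R6Q change with K. lactis scaling, at 0.57 (adjusted p = 0.0121). VTC4 was lower in WT tagged than in WT untagged, at log2 -1.30 ± 0.18 (SE, adjusted p = 0.00034), in every fit tried.

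Each substitution strain was also compared with the deletion of its own background. In H2B-K123R against rad6Δ untagged 4 members were higher and 1 was lower, where 5.25% of all genes were higher and 5.27% lower. In rad6-R6Q against rad6Δ tagged the counts were also 4 and 1 (8.2% and 8.22% of all genes). In rad6-R6A,M10A against rad6Δ tagged 1 was higher and 1 lower (3.71% and 4.84%), and in rtf1-AAA 0 were higher and 1 was lower (6.44% and 7.89%). The last 3 comparisons share the rad6Δ tagged libraries. VTC4 was higher in rad6-R6Q, at log2 0.74 ± 0.18 (SE, adjusted p = 0.00615), in rad6-R6A,M10A, at log2 0.58 ± 0.18 (SE, adjusted p = 0.0411), and in H2B-K123R, at log2 0.58 ± 0.17 (SE, adjusted p = 0.0354). For rtf1-AAA the difference was 0.51 ± 0.17 (SE, adjusted p = 0.054) and was not called, and it was called in 7 other fits, at 0.49 to 0.59 (adjusted p = 0.00522 to 0.0462). The rad6-R6Q difference kept its call in every fit tried. The H2B-K123R call was lost with K. lactis scaling, at 0.37 (adjusted p = 0.119), and without either H2B-K123R replicate 1 or 2 or else rad6Δ untagged replicate 1, 2 or 3, at 0.40 to 0.62 (adjusted p = 0.0598 to 0.179). The rad6-R6A,M10A call was lost without either rad6-R6A,M10A replicate 1 or 2 or else rad6Δ tagged replicate 1, 2 or 3, at 0.44 to 0.66 (adjusted p = 0.0507 to 0.152).

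**Figure D2:**
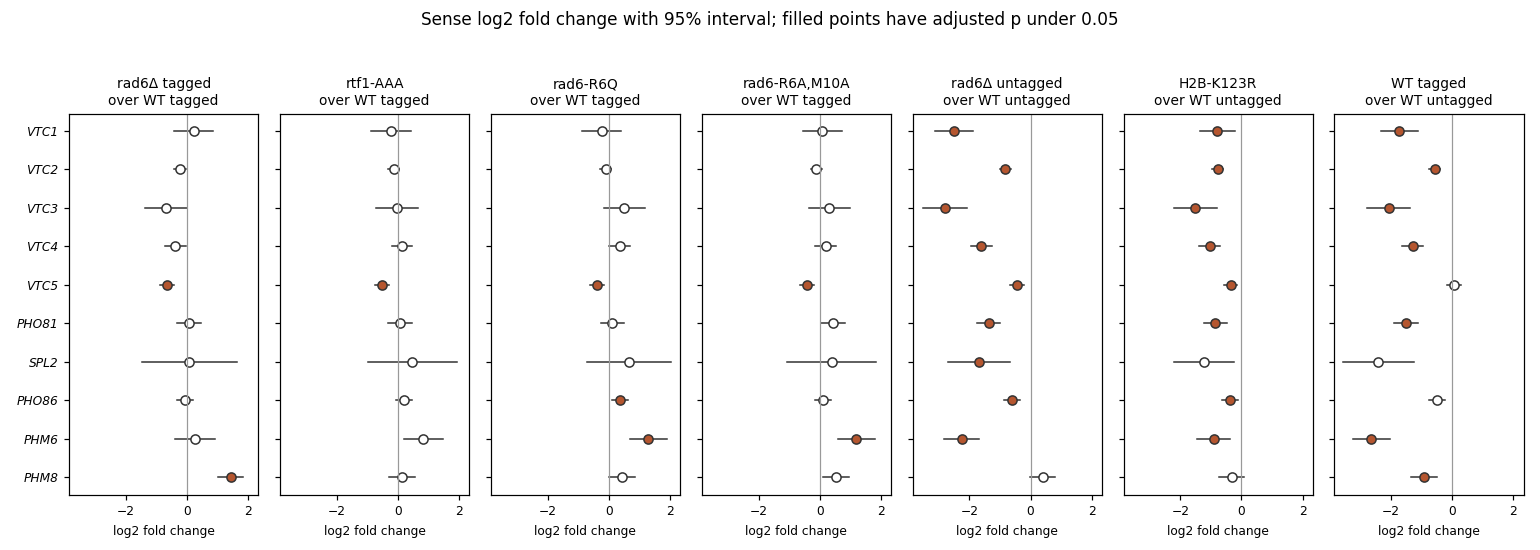
Log2 fold change of each gene's sense level (horizontal axes, bars are 95% intervals) in the 6 mutants against their matched wild type and in WT tagged against WT untagged; filled points passed the threshold. The untagged mutants and the wild-type comparison lie well left of 0 for most genes, VTC5 lies left of 0 in all 6 mutants but not between the wild types, and PHM8 lies farthest right in rad6Δ tagged.

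VTC2, the other partner subunit, varied less. It was at 318, 318 and 316 CPM in rad6Δ untagged and 357, 309 and 322 CPM in H2B-K123R, against 628, 546 and 521 CPM in WT untagged, where every library was above every library of the other groups. VTC2 fell in rad6Δ untagged, at log2 -0.83 ± 0.09 (SE, adjusted p = 4.68e-07), and in H2B-K123R, at log2 -0.78 ± 0.09 (SE, adjusted p = 2.43e-06). It was lower in WT tagged than in WT untagged, at log2 -0.58 ± 0.09 (SE, adjusted p = 0.00239). Within the tagged strains its libraries ran from 311 to 332 CPM in rad6Δ tagged, against 355 to 402 CPM in WT tagged, without overlap. That difference of -0.23 ± 0.09 (SE, adjusted p = 0.0502) narrowly missed the threshold and passed it with the replicate block, at -0.23 (adjusted p = 0.0373), and in 6 other fits. The other tagged strains had 343 to 359 CPM in rad6-R6A,M10A, 334 to 374 CPM in rad6-R6Q and 304 to 385 CPM in rtf1-AAA, all overlapping WT tagged. None of these 3 was called.

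VTC1, the small membrane subunit, had few counts, 31 to 43 a library in rad6Δ untagged and up to 306 in WT untagged. Its levels were 5.39, 4.60 and 3.11 CPM in rad6Δ untagged and 14.3, 15.9 and 12.3 CPM in H2B-K123R, against 37.5, 13.7 and 22.9 CPM in WT untagged. The rad6Δ untagged libraries lay below both other groups, whereas H2B-K123R overlapped WT untagged. VTC1 fell in rad6Δ untagged, at log2 -2.51 ± 0.32 (SE, adjusted p = 2.89e-06), and in H2B-K123R, at log2 -0.80 ± 0.29 (SE, adjusted p = 0.0467). The H2B-K123R call was lost in 9 of 13 other fits, among them those without either H2B-K123R replicate 1, 2 or 3 or else WT untagged replicate 1 or 3, at -0.36 to -0.90 (adjusted p = 0.0657 to 0.399), the smallest change being that without WT untagged replicate 1. VTC1 was lower in WT tagged than in WT untagged, at log2 -1.73 ± 0.31 (SE, adjusted p = 0.00582), and this was not called without either WT untagged replicate 1 or else WT tagged replicate 3, at -1.30 to -1.57 (adjusted p = 0.0677 to 0.0686), or with the compared groups only, at -1.74 (adjusted p = 0.0905).

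In the tagged strains VTC1 was at 5.86, 11.2 and 8.70 CPM in rad6Δ tagged, against 8.91, 7.66 and 5.68 CPM in WT tagged, and these overlapped. The other tagged strains had 6.27 to 9.35 CPM in rad6-R6A,M10A, 5.08 to 8.48 CPM in rad6-R6Q and 4.63 to 7.52 CPM in rtf1-AAA, all overlapping WT tagged. No tagged mutant was called. Between the deletions, all 3 rad6Δ tagged libraries were above all 3 rad6Δ untagged ones, at 0.99 ± 0.34 (SE, adjusted p = 0.504), which was not called. VTC1 was higher in H2B-K123R than in rad6Δ untagged, at log2 1.71 ± 0.33 (SE, adjusted p = 0.00175), and this held in every fit tried.

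Per length, the VTC genes together were at about the same level in both deletions, and the mean of each of the other 7 strains was less than the WT untagged mean by more than 2-fold. The summed level of VTC1 to VTC5 was 410.2 ± 12.8 CPM per kb in rad6Δ untagged and 630.5 ± 100.5 CPM per kb in H2B-K123R, against 1355 ± 269 CPM per kb in WT untagged (SD, n = 3). In the tagged background it was 412 ± 9.85 CPM per kb in rad6Δ tagged, 580.4 ± 106 in rad6-R6A,M10A, 626 ± 130.0 in rad6-R6Q and 526 ± 106 in rtf1-AAA, against 548 ± 86.9 CPM per kb in WT tagged. The makeup of the sum differed as well. VTC3 gave 19.9% ± 0.597 of it in rad6Δ untagged and 31.3% ± 2.84 in H2B-K123R, against 41.7% ± 1.24 in WT untagged. VTC2 gave 31.1% ± 0.910 in rad6Δ untagged, against 17% ± 1.70 in WT untagged, so the order of the partner subunits per length was VTC2 above VTC3 in the deletion and the reverse in WT untagged. In rad6Δ tagged VTC3 gave 19.98% ± 0.994 and VTC2 31.4% ± 0.462, against 23.9% ± 4.78 and 28.1% ± 3.71 in WT tagged. VTC4 kept a near-constant share, 34.4% ± 1.38 in rad6Δ untagged and 32.8% ± 0.832 in rad6Δ tagged, against 31.9% ± 0.473 in WT tagged and 31.8% ± 0.557 in WT untagged. These shares are a description and were not tested.

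**Figure D3:**
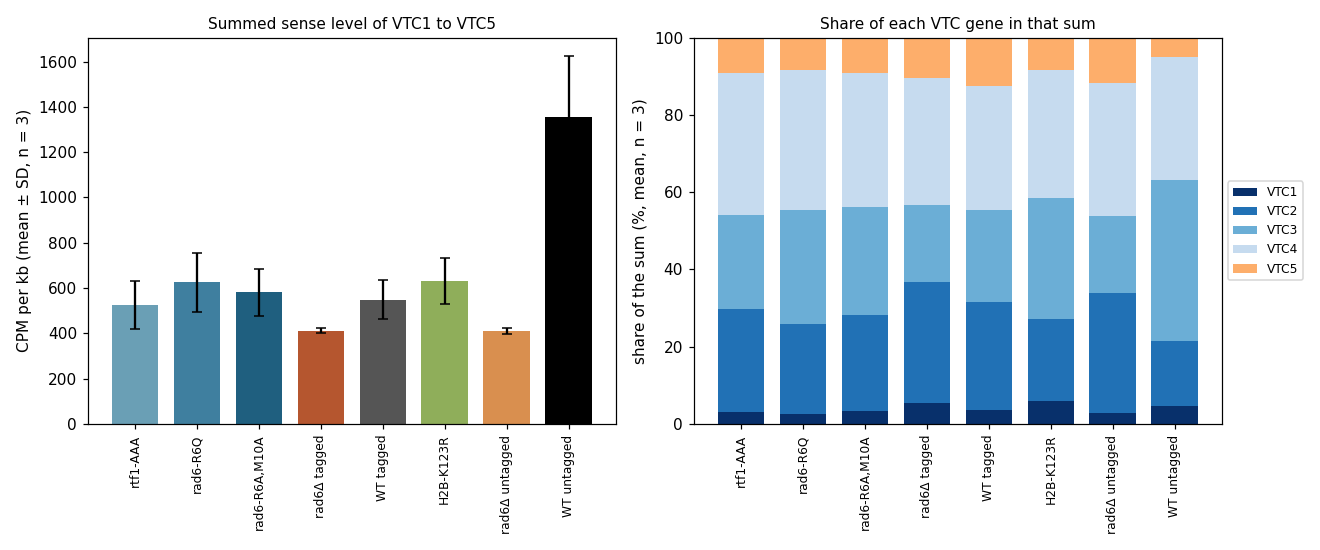
Left, summed sense level of VTC1 to VTC5 in CPM per kb of gene (bars are means, error bars SD over 3 libraries); right, the mean share of each gene in that sum in percent. The WT untagged bar is the tallest and has the largest VTC3 share, and both rad6Δ strains have the smallest sums and VTC3 shares.

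For VTC5, the stimulating subunit, every library of all 6 mutants was below every library of both wild types. It was at 129, 134 and 116 CPM in rad6Δ untagged and 115, 134 and 153 CPM in H2B-K123R, against 164, 175 and 175 CPM in WT untagged, and fell, at log2 -0.44 ± 0.11 (SE, adjusted p = 0.0033) and at log2 -0.36 ± 0.11 (SE, adjusted p = 0.0244). Tagged mutants had 109.9, 112 and 117 CPM in rad6Δ tagged, 115, 143 and 142 CPM in rad6-R6A,M10A, 146, 119 and 143 CPM in rad6-R6Q and 131, 129 and 111 CPM in rtf1-AAA, against 183, 164 and 187 CPM in WT tagged. All 4 fell against WT tagged, at log2 -0.65 ± 0.11 (SE, adjusted p = 9.45e-05) in rad6Δ tagged, -0.42 ± 0.11 (SE, adjusted p = 0.0101) in rad6-R6A,M10A, -0.39 ± 0.11 (SE, adjusted p = 0.0138) in rad6-R6Q and -0.52 ± 0.11 (SE, adjusted p = 0.00189) in rtf1-AAA. The wild types overlapped, with a difference of 0.05 ± 0.11 (SE, adjusted p = 0.857) for WT tagged against WT untagged and a 95% interval of -0.17 to 0.28. The deletion effects in the tagged and untagged backgrounds differed by -0.21 ± 0.16 (SE, adjusted p = 0.731), not called.

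The VTC5 falls in both deletions were called in every fit tried. With libraries scaled by the K. lactis counts instead, the all-gene median, as a log2 fold change, was 0.21 in rad6-R6A,M10A, 0.19 in rad6-R6Q, 0.25 in rtf1-AAA, 0.21 in rad6Δ tagged and 0.12 in rad6Δ untagged, where TMM scaling had it at -0.02 to 0.02. VTC5 was then -0.20 (adjusted p = 0.24) in rad6-R6A,M10A, -0.17 (adjusted p = 0.308) in rad6-R6Q and -0.27 (adjusted p = 0.0981) in rtf1-AAA, none of them called, while -0.46 (adjusted p = 0.00468) in rad6Δ tagged and -0.32 (adjusted p = 0.0416) in rad6Δ untagged were. The H2B-K123R call was lost without either H2B-K123R replicate 1 or else WT untagged replicate 2 or 3, at -0.26 to -0.34 (adjusted p = 0.0644 to 0.121). The rad6-R6Q call was lost without WT tagged replicate 3, at -0.35 (adjusted p = 0.0541), and with the compared groups only, at -0.37 (adjusted p = 0.084), and the rad6-R6A,M10A call without rad6-R6A,M10A replicate 1, at -0.31 (adjusted p = 0.0582).

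PHO81, the kinase inhibitor, separated WT untagged from every other strain. It was at 13.9, 12.8 and 15.5 CPM in rad6Δ untagged and 23.9, 19.2 and 17.3 CPM in H2B-K123R, against 47.8, 27.2 and 34.4 CPM in WT untagged, with no overlap between any of the 3 groups. PHO81 fell in rad6Δ untagged, at log2 -1.37 ± 0.19 (SE, adjusted p = 6.55e-06), and in H2B-K123R, at log2 -0.85 ± 0.19 (SE, adjusted p = 0.00183). Tagged strains had 12.2, 14.7 and 13.0 CPM in rad6Δ tagged, 22.6, 15.3 and 13.9 CPM in rad6-R6A,M10A, 12.4, 15.1 and 14 CPM in rad6-R6Q and 12.3, 14.7 and 13.2 CPM in rtf1-AAA, against 13.1, 13.9 and 11.2 CPM in WT tagged. The rad6Δ tagged, rtf1-AAA and rad6-R6Q libraries overlapped those of WT tagged, and those of rad6-R6A,M10A lay at 13.9 CPM or more. None of the 4 was called, with 0.06 ± 0.20 (SE, adjusted p = 0.827) in rad6Δ tagged and 0.44 ± 0.20 (SE, adjusted p = 0.107) in rad6-R6A,M10A, the last called with K. lactis scaling, at 0.64 (adjusted p = 0.017), and in unstranded counts, at 0.52 (adjusted p = 0.0475). PHO81 was lower in WT tagged than in WT untagged, at log2 -1.52 ± 0.20 (SE, adjusted p = 0.000257), in every fit tried.

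SPL2, the uptake modulator, was near the lower limit of these libraries. Its sense counts were 7, 9 and 9 in rad6Δ untagged and 12, 8 and 13 in H2B-K123R, against 47, 9 and 18 in WT untagged. WT untagged replicate 1 was the highest of all 24 libraries, and replicate 2 of that strain lay within the range of the others. Tagged strains had 9, 2 and 3 counts in rad6Δ tagged, 5, 9 and 5 in rad6-R6A,M10A, 11, 12 and 3 in rad6-R6Q and 6, 2 and 11 in rtf1-AAA, against 5, 3 and 5 in WT tagged. SPL2 fell in rad6Δ untagged, at log2 -1.68 ± 0.52 (SE, adjusted p = 0.0121), and without WT untagged replicate 1 this was -0.80 (adjusted p = 0.243), not called. In unstranded counts it was -1.11 (adjusted p = 0.0431). The gene reached the filter's level of about 1.16 CPM, there taken on sense totals without TMM scaling, in only 6 libraries of 4 groups. Of those libraries 2 were WT untagged. H2B-K123R, at -1.23 ± 0.50 (SE, adjusted p = 0.0716), and WT tagged against WT untagged, at -2.42 ± 0.59 (SE, adjusted p = 0.0602), were not called. Without WT untagged replicate 2 both were, at -1.64 (adjusted p = 0.0133) and -2.83 (adjusted p = 0.0112), and the wild-type difference also was with the replicate block, at -2.35 (adjusted p = 0.0419), and by DESeq2, at -2.46 (adjusted p = 0.0342).

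PHO86, which serves the exit of Pho84 from the endoplasmic reticulum, had a narrow range. It was at 292, 253 and 276 CPM in rad6Δ untagged and 343, 317 and 316 CPM in H2B-K123R, against 476, 390.3 and 399 CPM in WT untagged, which stood above both without overlap. It fell in rad6Δ untagged, at log2 -0.62 ± 0.13 (SE, adjusted p = 0.00069), and in H2B-K123R, at log2 -0.37 ± 0.13 (SE, adjusted p = 0.0413). The H2B-K123R call was lost without either H2B-K123R replicate 2 or 3 or else WT untagged replicate 1 or 3, at -0.28 to -0.41 (adjusted p = 0.0571 to 0.195). In the tagged background it was at 287, 268 and 302 CPM in rad6Δ tagged, 350.1, 308 and 310.3 CPM in rad6-R6A,M10A, 470.2, 304 and 368 CPM in rad6-R6Q and 409, 323 and 296 CPM in rtf1-AAA, against 310.2, 277 and 303 CPM in WT tagged. PHO86 rose in rad6-R6Q, at log2 0.36 ± 0.13 (SE, adjusted p = 0.0464), with overlap. That call was lost in 7 of 13 other fits, among them those without either rad6-R6Q replicate 1 or 3 or else WT tagged replicate 1, 2 or 3, at 0.18 to 0.38 (adjusted p = 0.0654 to 0.305), the smallest being that without rad6-R6Q replicate 1, and K. lactis scaling gave 0.57 (adjusted p = 0.00212). Against rad6Δ tagged it was higher in rad6-R6Q, at log2 0.41 ± 0.13 (SE, adjusted p = 0.0361), a call lost without either rad6-R6Q replicate 1 or 3 or else rad6Δ tagged replicate 1, 2 or 3, at 0.23 to 0.43 (adjusted p = 0.05 to 0.244), and with the compared groups only, at 0.45 (adjusted p = 0.117). WT tagged against WT untagged differed by -0.51 ± 0.13 (SE, adjusted p = 0.0969), not called, but called in 4 other fits, at -0.50 to -0.53 (adjusted p = 0.0158 to 0.0356).

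PHM6, whose product has no assigned role, was the member that rose most in the Rad6 substitution strains. It was at 22.6, 7.66 and 16.1 CPM in rad6-R6Q and 17.6, 15.2 and 10.6 CPM in rad6-R6A,M10A, against 6.68, 5.11 and 7.06 CPM in WT tagged. Every library of both strains was above every WT tagged library. PHM6 rose in rad6-R6Q, at log2 1.29 ± 0.31 (SE, adjusted p = 0.0038), and in rad6-R6A,M10A, at log2 1.20 ± 0.31 (SE, adjusted p = 0.00777), and both kept their call in every fit tried. In rtf1-AAA it was at 15, 11.1 and 7.92 CPM, also above every WT tagged library, and the change of 0.84 ± 0.32 (SE, adjusted p = 0.0615) was not called, while 5 other fits called it, at 0.82 to 1.09 (adjusted p = 0.00694 to 0.0338). In rad6Δ tagged, at 7.81, 6.91 and 7.94 CPM, it was not called, with 0.27 ± 0.33 (SE, adjusted p = 0.543). Untagged strains ran the other way, with 10.4, 6.80 and 7.83 CPM in rad6Δ untagged and 23.4, 21.2 and 19.1 CPM in H2B-K123R, against 49.4, 31.0 and 38.6 CPM in WT untagged. The 3 groups did not overlap, and PHM6 fell in rad6Δ untagged, at log2 -2.25 ± 0.30 (SE, adjusted p = 3.78e-06), and in H2B-K123R, at log2 -0.90 ± 0.28 (SE, adjusted p = 0.0191).

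The H2B-K123R call of PHM6 was lost without either H2B-K123R replicate 3 or else WT untagged replicate 1, at -0.71 to -0.82 (adjusted p = 0.0654 to 0.104). The gap between the wild types was the widest of any member that was called, at -2.66 ± 0.31 (SE, adjusted p = 0.000126) for WT tagged against WT untagged. PHM6 was higher in H2B-K123R than in rad6Δ untagged, at log2 1.35 ± 0.30 (SE, adjusted p = 0.00541), in every fit. It was higher in rad6-R6Q than in rad6Δ tagged, at log2 1.02 ± 0.31 (SE, adjusted p = 0.026), although 1 rad6-R6Q library lay within the rad6Δ tagged range, and the call was lost without either rad6-R6Q replicate 1 or 3 or else rad6Δ tagged replicate 1, 2 or 3, at 0.64 to 1.04 (adjusted p = 0.0558 to 0.186), the smallest value being that without rad6-R6Q replicate 1, and with the compared groups only, at 1.06 (adjusted p = 0.108).

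PHM8, the nucleotide phosphatase, was the only member with its highest levels in the deletions. It was at 29.3, 24.3 and 30.1 CPM in rad6Δ tagged and 27.8, 23.8 and 25.8 CPM in rad6Δ untagged, and every one of these 6 libraries was above every library of the other 6 strains. WT tagged was lowest, at 13.5, 7.29 and 10.5 CPM, and WT untagged had 20.6, 21 and 17.4 CPM. PHM8 rose in rad6Δ tagged, at log2 1.42 ± 0.21 (SE, adjusted p = 1.6e-05), in every fit, and the rad6Δ untagged change of 0.39 ± 0.20 (SE, adjusted p = 0.125) was not called, but was with the compared groups only, at 0.38 (adjusted p = 0.031), and with K. lactis scaling, at 0.51 (adjusted p = 0.0484). The difference between those effects was 1.03 ± 0.29 (SE, adjusted p = 0.211), not called. PHM8 was lower in WT tagged than in WT untagged, at log2 -0.92 ± 0.21 (SE, adjusted p = 0.0449), a call that was lost without either WT untagged replicate 1, 2 or 3 or else WT tagged replicate 2 or 3, at -0.72 to -1.0 (adjusted p = 0.0869 to 0.202), and with the compared groups only, at -0.93 (adjusted p = 0.0536).

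The substitution strains did not share the PHM8 level of the deletions. It was at 19.2, 13.4 and 12.4 CPM in rad6-R6A,M10A, 16.4, 12.1 and 13.3 CPM in rad6-R6Q, 13.6, 10.9 and 10.03 CPM in rtf1-AAA and 17.1, 18.6 and 11.4 CPM in H2B-K123R. Against rad6Δ tagged it was lower in rad6-R6A,M10A, at log2 -0.89 ± 0.21 (SE, adjusted p = 0.00823), in rad6-R6Q, at log2 -1.0 ± 0.21 (SE, adjusted p = 0.00192), and in rtf1-AAA, at log2 -1.28 ± 0.21 (SE, adjusted p = 0.000236). Against rad6Δ untagged it was lower in H2B-K123R, at log2 -0.71 ± 0.20 (SE, adjusted p = 0.028). The rtf1-AAA and rad6-R6Q differences held in every fit. The rad6-R6A,M10A call was lost without rad6-R6A,M10A replicate 2 or 3, at -0.76 to -0.81 (adjusted p = 0.0503 to 0.0531), and the H2B-K123R call without either H2B-K123R replicate 3 or else rad6Δ untagged replicate 1 or 3, at -0.52 to -0.71 (adjusted p = 0.0735 to 0.135). Against their own wild types none of the 4 was called, with 0.53 ± 0.22 (SE, adjusted p = 0.0742) in rad6-R6A,M10A, 0.42 ± 0.22 (SE, adjusted p = 0.152) in rad6-R6Q, 0.14 ± 0.22 (SE, adjusted p = 0.696) in rtf1-AAA and -0.32 ± 0.21 (SE, adjusted p = 0.267) in H2B-K123R. The rad6-R6A,M10A change was called in 4 other fits, at 0.53 to 0.75 (adjusted p = 0.012 to 0.047), and the rad6-R6Q change with K. lactis scaling, at 0.64 (adjusted p = 0.0259). In counts that ignore strand, and so mix sense and antisense reads, the rad6Δ tagged rise of PHM8 was 0.81 (adjusted p = 0.000119), the rad6-R6A,M10A difference from rad6Δ tagged -0.58 (adjusted p = 0.0126) and the H2B-K123R difference from rad6Δ untagged -0.43 (adjusted p = 0.0525), the last not called.

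Libraries numbered 1 stood high for several members in tagged and untagged strains alike. VTC4 was highest in replicate 1 in 8 of 8 groups, VTC3 and PHO86 in 7, PHM6 in 6 and PHM8 in 5. The other members were highest there in fewer groups, VTC1, VTC2 and SPL2 in 4, PHO81 in 3 and VTC5 in 2. How often replicate 1 is highest over all genes was not counted. The median excess of replicate 1 over the mean of the other replicates was 0.68 on the log2 scale for VTC3 and 0.39 for VTC4, against -0.01 for VTC5. The labels name no batch, and whether these libraries shared one was not tested.

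Other genes of phosphate metabolism were taken from 4 lists of 28 genes in all, and all 28 were tested. Over the 6 mutants, 11.9% to 22.3% of all genes rose and 12.3% to 20.5% fell, so 1 call in a list of 3, 5 or 7 genes is near the background. Of 5 regulators of the pathway, 1 rose and 1 fell in rad6Δ tagged, 0 rose and 1 fell in each of rad6-R6A,M10A, rad6-R6Q, rtf1-AAA and rad6Δ untagged, and none was called in H2B-K123R or between the wild types. The one that fell each time was PHO80, the cyclin that Pho81 inhibits. It was at 21.3 ± 2.95 CPM in rad6Δ tagged, 24.2 ± 2.31 CPM in rad6-R6A,M10A, 21.3 ± 8.63 CPM in rad6-R6Q and 26 ± 0.743 CPM in rtf1-AAA, against 39.4 ± 3.97 CPM in WT tagged (SD, n = 3). It fell, at log2 -0.89 ± 0.20 (SE, adjusted p = 0.000976) in rad6Δ tagged, -0.70 ± 0.19 (SE, adjusted p = 0.0114) in rad6-R6A,M10A, -0.88 ± 0.19 (SE, adjusted p = 0.00182) in rad6-R6Q, -0.60 ± 0.19 (SE, adjusted p = 0.027) in rtf1-AAA and -0.59 ± 0.19 (SE, adjusted p = 0.0172) in rad6Δ untagged. H2B-K123R, at -0.42 ± 0.19 (SE, adjusted p = 0.117), was not called. The one that rose in rad6Δ tagged was PHO2, a partner of Pho4, at 0.91 ± 0.30 (SE, adjusted p = 0.0205), named after its value was seen. PHO4 and the kinase gene PHO85 were not called in any comparison, with PHO4 at 49.5 ± 2.74 CPM in rad6Δ tagged, against 44.2 ± 3.71 CPM in WT tagged.

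Of 13 phosphatases and transporters, 0 rose and 9 fell in rad6Δ untagged (22.3% and 20.5% of all genes) and 0 rose and 6 fell in H2B-K123R (14% and 12.3%). In the tagged background 0 rose and 3 fell in rad6Δ tagged (21.5% and 20.2%), 2 rose and 2 fell in rad6-R6A,M10A (12% and 13.2%), 3 rose and 3 fell in rad6-R6Q (14.6% and 14.5%) and 0 rose and 4 fell in rtf1-AAA (11.9% and 12.6%). The counts of 2 or 3 of 13 are near those shares. Between the wild types 0 were higher and 5 were lower in WT tagged (0.345% and 0.328%). PHO84, the high-affinity transporter, was at 4.01 ± 1.23 CPM in rad6Δ untagged and 75.6 ± 38.5 CPM in H2B-K123R, against 282 ± 128 CPM in WT untagged. It fell, at log2 -6.11 ± 0.65 (SE, adjusted p = 7.31e-07) and at log2 -1.90 ± 0.50 (SE, adjusted p = 0.00908), and in rad6Δ tagged, at 3.91 ± 0.738 CPM, against 22.6 ± 19.5 CPM in WT tagged, it fell, at log2 -2.52 ± 0.65 (SE, adjusted p = 0.00433). The secreted acid phosphatase PHO5 was at 13.4 ± 1.16 CPM in rad6Δ untagged and 47.8 ± 17 CPM in H2B-K123R, against 169 ± 71.8 CPM in WT untagged, and fell, at log2 -3.65 ± 0.44 (SE, adjusted p = 2.33e-06) and -1.82 ± 0.39 (SE, adjusted p = 0.00214). It rose in rad6-R6Q, at log2 1.25 ± 0.41 (SE, adjusted p = 0.0278), and in rad6-R6A,M10A, at log2 1.14 ± 0.41 (SE, adjusted p = 0.0483). PHO5 was at 49.79 ± 15.42 CPM in rad6-R6Q, above every WT tagged library. In rad6-R6A,M10A it was at 45.98 ± 31.06 CPM. Those libraries ran from 26.66 to 81.81 CPM and overlapped WT tagged, which reached 26.72 CPM. PHO5 was not called in rad6Δ tagged, at -0.66 ± 0.43 (SE, adjusted p = 0.232).

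The sodium-coupled transporter PHO89 was at 87.9 ± 60.9 CPM in rad6-R6Q and 89.4 ± 38.0 CPM in rad6-R6A,M10A, against 11.3 ± 9.84 CPM in WT tagged, and rose, at log2 2.97 ± 0.65 (SE, adjusted p = 0.00241) and 3.00 ± 0.65 (SE, adjusted p = 0.00271). It was at 14.9 ± 1.93 CPM in rad6Δ untagged and 218 ± 130.0 CPM in H2B-K123R, against 81.1 ± 35.4 CPM in WT untagged. In rad6Δ untagged it fell, at log2 -2.45 ± 0.63 (SE, adjusted p = 0.00413), while in H2B-K123R the change of 1.43 ± 0.58 (SE, adjusted p = 0.0758) was not called, with overlap. The acid phosphatases PHO11 and PHO12, which are near-identical copies whose reads may be split between them, fell in rad6Δ untagged, at log2 -3.54 ± 0.59 (SE, adjusted p = 8.23e-05) and -4.94 ± 0.65 (SE, adjusted p = 6.9e-06), and in H2B-K123R, at log2 -1.91 ± 0.52 (SE, adjusted p = 0.0104) and -2.36 ± 0.54 (SE, adjusted p = 0.00312). The vacuolar transporter PHO91 fell in rad6Δ untagged, at log2 -1.23 ± 0.33 (SE, adjusted p = 0.00414). GIT1, which imports glycerophosphoinositol, fell in rad6Δ tagged, at log2 -1.10 ± 0.18 (SE, adjusted p = 4.16e-05), and in rtf1-AAA, at log2 -1.06 ± 0.18 (SE, adjusted p = 0.000181). SYG1, a homolog of phosphate exporters that was named after its values were seen, fell in all 6 mutants, with log2 values of -0.72 in rad6Δ tagged (adjusted p = 6.71e-06) to -0.37 in rad6-R6Q (adjusted p = 0.00698).

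Of 3 polyphosphate-degrading enzymes, 1 rose in each of the 6 mutants, and 1 fell in each of the deletions. The one that rose was PPN1, the vacuolar endopolyphosphatase, with log2 values of 0.35 in rad6-R6A,M10A (adjusted p = 0.0464) to 0.74 in rad6Δ untagged (adjusted p = 6.57e-05). The ones that fell were PPX1, the cytosolic exopolyphosphatase, in rad6Δ tagged, at log2 -0.38 ± 0.14 (SE, adjusted p = 0.0342), and PPN2 in rad6Δ untagged, at log2 -0.52 ± 0.19 (SE, adjusted p = 0.0276). These 3 were named after their values were seen. Of 7 enzymes of inositol polyphosphates, VIP1, which makes inositol pyrophosphates, rose in all 6 mutants. It was at 536 ± 16.6 CPM in rad6Δ tagged, against 259.6 ± 4.23 CPM in WT tagged, and at 509.8 ± 18.7 CPM in rad6Δ untagged, against 357 ± 33.4 CPM in WT untagged. It rose, at log2 1.05 ± 0.09 (SE, adjusted p = 1.97e-08) and 0.51 ± 0.09 (SE, adjusted p = 0.000139), and at log2 0.95 in rad6-R6A,M10A, 0.87 in rad6-R6Q, 0.96 in rtf1-AAA and 0.26 in H2B-K123R, where the libraries overlapped those of WT untagged. VIP1 was also lower in WT tagged than in WT untagged, at log2 -0.46 ± 0.09 (SE, adjusted p = 0.0156). Of the other enzymes on that list SIW14 fell in rad6Δ tagged, at log2 -0.31 ± 0.10 (SE, adjusted p = 0.0216), and DDP1 in rad6Δ untagged, at log2 -0.52 ± 0.16 (SE, adjusted p = 0.0106), while IPK1 rose in rad6Δ untagged, at log2 0.69 ± 0.19 (SE, adjusted p = 0.00517), and in H2B-K123R, at log2 0.60 ± 0.19 (SE, adjusted p = 0.021). These 3 were also named after their values were seen.

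Among genes outside the 10, the closest in pattern to VTC4 over the 24 libraries were the acid phosphatases. On log2(CPM + 1) values PHO5 had Pearson r = 0.97, and r = 0.94 over the 21 libraries without WT untagged. PHO12 had r = 0.96 (0.90 without WT untagged) and PHO11 r = 0.94 (0.83). For SPL2 the closest were PHO11, with r = 0.75 (0.44 without WT untagged), PHO12, with r = 0.68 (0.33), and NGK1, with r = 0.68 (0.49). The 24 points are 8 strains with 3 libraries each and share their replicate numbers, so the values describe likeness and carry no p-value.

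Antisense reads of the members were few except at PHO81 and PHM8. Over all libraries PHO81 had 3022 antisense and 3639 sense counts, and PHM8 had 1742 and 3606. Both genes meet a convergent neighbour, NAS6 (YGR232W) at 27 bases from PHO81 and KRE29 (YER038C) at 3 bases from PHM8. The table that ignores strand held fewer counts than the strands together. The shortfall equalled 92.5% of the PHO81 antisense counts and 51.0% of those of PHM8, and the strand of the missing counts is not known. Antisense transcripts of the gene cannot be told apart there from transcripts that run past the end of the neighbour. VTC3 had 681 antisense counts beside 99624 sense counts, VTC4 309 beside 95498 and VTC5 288 beside 28634. SPL2, with 58, and PHO86, with 127, were too low to be tested. The others had 251 for VTC1, 149 for VTC2 and 244 for PHM6, and none of these 3 was called in any comparison, except VTC1 in rad6Δ tagged without its replicate 1, at -1.45 (adjusted p = 0.0454).

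Of the 8 members tested, antisense levels of 3 rose and of 0 fell in rad6Δ tagged, where 15.2% of the 3900 antisense genes rose and 12.4% fell. In rad6Δ untagged 2 rose and 0 fell (22.7% and 6.54% of all), and in H2B-K123R 1 rose and 0 fell (29.1% and 3.95%). In rad6-R6A,M10A 1 rose and 0 fell (10.6% and 7.95%), in rad6-R6Q 0 rose and 1 fell (9.82% and 10.9%), and in rtf1-AAA 0 rose and 0 fell (10.9% and 9.03%). Between the wild types 0 were higher and 0 lower in WT tagged than in WT untagged by edgeR's quasi-likelihood test (4.41% and 0.462%). At an unadjusted p under 0.05 these 2 comparisons without calls held VTC4 and VTC5 in rtf1-AAA, at log2 1.63 ± 0.68 (SE, adjusted p = 0.0953) and 0.98 ± 0.41 (SE, adjusted p = 0.0904), and VTC3 between the wild types, at log2 1.35 ± 0.57 (SE, adjusted p = 0.241), and DESeq2 called 0 members in each. In rtf1-AAA, VTC5 was called with K. lactis scaling and without rtf1-AAA replicate 1 or WT tagged replicate 1, at 1.22 to 1.39 (adjusted p = 0.0362 to 0.0464), VTC4 without rtf1-AAA replicate 1, at 2.0 (adjusted p = 0.0465), and PHO81, which fell, without rtf1-AAA replicate 3, at -0.64 (adjusted p = 0.0155). VTC3 was called between the wild types without WT untagged replicate 3, at 2.39 (adjusted p = 0.0474). Antisense levels of all genes moved as well, with a median log2 fold change of 0.32 in rad6Δ untagged and 0.40 in H2B-K123R. The median over the 8 members was 0.39 in rad6Δ untagged and 0.33 in H2B-K123R.

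Antisense VTC4 was at 1.46, 1.48 and 3.28 CPM in rad6Δ tagged and 0.860, 1.47 and 2.96 CPM in rad6-R6A,M10A, against 0.393, 0.729 and 0.252 CPM in WT tagged. These were 12, 12 and 26 counts in rad6Δ tagged, 8, 12 and 26 in rad6-R6A,M10A and 3, 6 and 2 in WT tagged. All libraries of both mutants were above WT tagged. It rose in rad6Δ tagged, at log2 2.13 ± 0.66 (SE, adjusted p = 0.0183), and in rad6-R6A,M10A, at log2 1.90 ± 0.67 (SE, adjusted p = 0.0498). The rad6Δ tagged call was lost without either rad6Δ tagged replicate 3 or else WT tagged replicate 1 or 3, at 1.64 to 2.0 (adjusted p = 0.0732 to 0.108). The rad6-R6A,M10A call was lost in 7 of 11 other fits, among them those without either rad6-R6A,M10A replicate 2 or 3 or else WT tagged replicate 1, 2 or 3, at 1.31 to 2.41 (adjusted p = 0.0566 to 0.252). In rad6Δ untagged, at 1.88, 2.08 and 3.41 CPM, against 0.491, 0.584 and 1.84 CPM in WT untagged, all libraries of the deletion were above, and the change of 1.34 ± 0.58 (SE, adjusted p = 0.0894) was not called. It was called with the replicate block, at 1.37 (adjusted p = 0.025), with the compared groups only, at 1.33 (adjusted p = 0.0305), and without WT untagged replicate 3, at 2.17 (adjusted p = 0.0171). In rad6-R6Q the change was 1.57 ± 0.68 (SE, adjusted p = 0.106), and with the replicate block it was 1.63 (adjusted p = 0.04), called.

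Antisense VTC3 was at 3.26, 4.28 and 3.71 CPM in rad6Δ untagged and 2.53, 4.49 and 3.63 CPM in H2B-K123R, against 0.613, 0.467 and 2.33 CPM in WT untagged. Both mutants were above WT untagged without overlap, in the same strains in which sense VTC3 fell. The antisense level rose, at log2 1.72 ± 0.55 (SE, adjusted p = 0.0237) in rad6Δ untagged and at log2 1.64 ± 0.56 (SE, adjusted p = 0.029) in H2B-K123R. The rad6Δ untagged call was lost without either rad6Δ untagged replicate 2 or 3 or else WT untagged replicate 1 or 2, at 1.35 to 1.74 (adjusted p = 0.0539 to 0.111), and the H2B-K123R call without either H2B-K123R replicate 2 or 3 or else WT untagged replicate 1 or 2, at 1.26 to 1.63 (adjusted p = 0.0646 to 0.131). Without WT untagged replicate 3, the highest of that strain, the values were 2.77 (adjusted p = 0.00258) and 2.68 (adjusted p = 0.00307). In rad6Δ tagged VTC3 was at 3.78, 4.07 and 3.91 CPM, against 2.75, 4.5 and 1.39 CPM in WT tagged, which overlapped.

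Antisense VTC5 was at 1.59, 2.59 and 2.02 CPM in rad6Δ tagged, against 1.18, 0.729 and 0.378 CPM in WT tagged, without overlap, and rose, at log2 1.43 ± 0.40 (SE, adjusted p = 0.00775). Without WT tagged replicate 3 it was 1.11 (adjusted p = 0.0607), not called. In rad6Δ untagged it was at 1.63, 1.21 and 2.21 CPM, against 1.72, 1.05 and 1.35 CPM in WT untagged, overlapping, with 0.30 ± 0.37 (SE, adjusted p = 0.618). Sense VTC5 fell in both deletions, whereas its antisense level was called in only 1 of them, and the difference between the deletions on the antisense strand was not tested.

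Antisense PHO81 was at 18.7, 19.9 and 17.5 CPM in rad6Δ tagged, against 16.1, 12.3 and 12.5 CPM in WT tagged, and at 17.1, 20.1 and 17.1 CPM in rad6Δ untagged, against 12.8, 14.1 and 11.9 CPM in WT untagged. Neither pair overlapped. It rose, at log2 0.46 ± 0.17 (SE, adjusted p = 0.0444) and at log2 0.48 ± 0.17 (SE, adjusted p = 0.0316), beside all-gene antisense medians of 0.12 and 0.32. The rad6Δ tagged call was lost in 8 of 12 other fits, among them those without either rad6Δ tagged replicate 1, 2 or 3 or else WT tagged replicate 2 or 3, at 0.39 to 0.50 (adjusted p = 0.0651 to 0.182). The rad6Δ untagged call was lost without either rad6Δ untagged replicate 1 or 2 or else WT untagged replicate 1 or 3, at 0.40 to 0.52 (adjusted p = 0.0523 to 0.142). As a share of its sense and antisense counts, PHO81 antisense was 58.5% ± 1.74 in rad6Δ tagged, against 51.6% ± 4.19 in WT tagged, and 56.2% ± 4.37 in rad6Δ untagged, against 27% ± 6.66 in WT untagged (SD, n = 3). WT untagged had the lowest share and the highest PHO81 sense level, and a higher sense count lowers this share by arithmetic. Antisense PHO81 itself was at 12.9 ± 1.13 CPM in WT untagged and 13.6 ± 2.16 CPM in WT tagged.

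Antisense PHM8 fell in rad6-R6Q, where it was at 3.42, 9.50 and 4.86 CPM, against 10.2, 10.2 and 9.59 CPM in WT tagged, a change of -0.74 ± 0.26 (SE, adjusted p = 0.048). The libraries did not overlap, but 1 rad6-R6Q library was close to WT tagged. The call was lost in 10 of 12 other fits, among them those without either rad6-R6Q replicate 1 or 3 or else WT tagged replicate 1, 2 or 3, at -0.47 to -0.77 (adjusted p = 0.0878 to 0.25). Without rad6-R6Q replicate 2, the library close to WT tagged, the value was -1.30 (adjusted p = 0.000758). In rad6Δ untagged the antisense level was 8.28, 7.45 and 9.13 CPM, against 12.4, 11.2 and 11.4 CPM in WT untagged, without overlap and not called, at -0.49 ± 0.26 (SE, adjusted p = 0.159), but called with the compared groups only, at -0.50 (adjusted p = 0.0177).

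**Figure D4:**
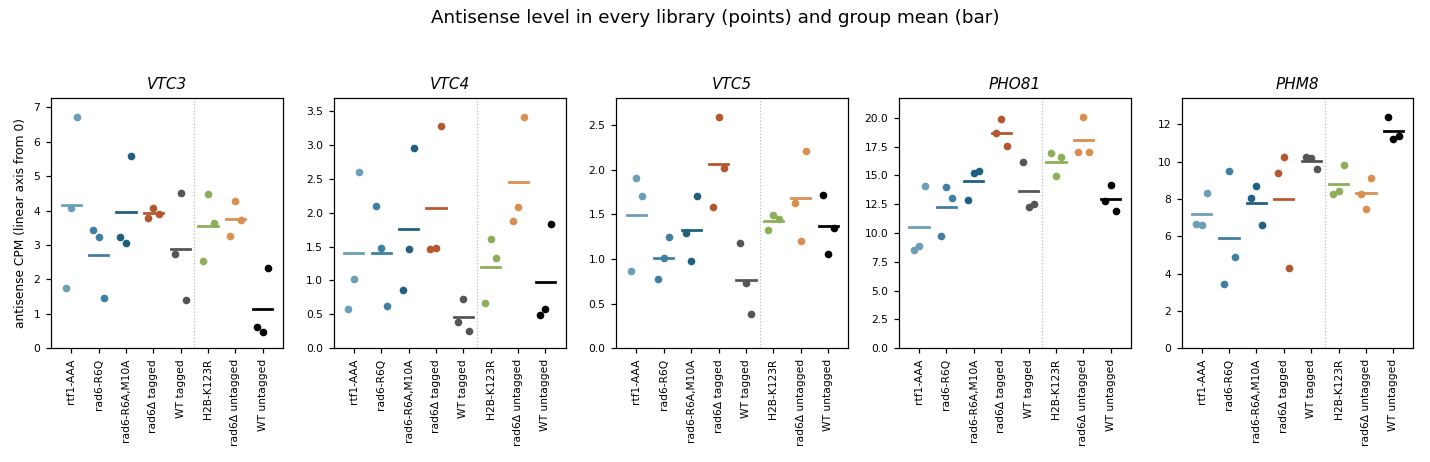
Antisense level in CPM of the 5 genes with a called antisense change (vertical axes, linear, from 0) in every library (points, 3 per strain), with group means as bars; a dotted line separates tagged from untagged strains. VTC4 and VTC5 are lowest in WT tagged, VTC3 is lowest in WT untagged, and PHO81 is highest in both rad6Δ strains.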

How the data were processed

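RNA-seq reads of 24 S. cerevisiae cultures were available as raw counts per gene that the authors deposited in 4 tables of 24 columns each, for the sense strand, the antisense strand, both strands together and the K. lactis genes of the admixed cells. Per the submitters' processing notes, STAR 2.7.5a, featureCounts and DESeq2 were used with the R64 and sacCer3 builds, with no role or order given. Cells of K. lactis were added before extraction, and RNA was depleted of ribosomal RNA and made into strand-specific libraries, per the labels' protocols. Of 6571 gene identifiers, 5897 were found in the R64 RefSeq table. Library totals, 7227245 to 10782960 sense and 411344 to 611282 antisense counts, set the precision, and counting error is larger for SPL2 and for the low antisense counts than for the other sense counts.

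Counts were tested with edgeR 4.0.16 in R 4.3.3 (TMM normalization, filterByExpr, robust quasi-likelihood F test) in 1 fit of all 24 libraries with 8 group means and no block. P-values were adjusted by Benjamini-Hochberg over 5790 sense or 3900 antisense genes, and antisense counts used the sense library sizes and factors. A change was called at an adjusted p under 0.05, standard errors are the log2 fold change divided by the square root of F, and 95% intervals follow from them. CPM per kb divides by gene length in R64. The procedure was checked on simulated counts. The alternatives were RLE normalization, scaling by K. lactis counts, no filter, a replicate block, unstranded counts, a fit of the compared groups only, DESeq2 1.42.0 and leaving out each library. Motifs were searched on both strands, and copies with BLAST+ 2.17.0.

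The members and lists were chosen with earlier results of these data known. Named genes were the 10 members, RAD6, PHO4, PHO80, PHO85, PHO5 and PHO84, list genes called in a mutant with a log2 value of 1 or more in size, the 3 genes most like VTC4 and SPL2, and neighbours that bear on antisense counts. Replicate numbers are shared between groups in the labels, without a stated batch. Deviations from the group means of same-numbered libraries correlated above 0.1 in every pair for 3 of 12 comparisons, with r of 0.29, 0.58 and 0.57 for rad6Δ tagged and WT tagged, 0.30, 0.49 and 0.46 for rad6-R6Q and WT tagged, and 0.21, 0.45 and 0.44 for rad6-R6Q and rad6Δ tagged. Blocked values stand beside the results of these comparisons where they change a call.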

Additional observations from a re-analysis of the deposited data

Results flagged for a closer look

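The effect of deleting RAD6 differed between the tagged and the untagged background for 4 genes by the interaction term of the edgeR fit, and they are listed for that reason. The difference, as the log2 effect in tagged strains minus that in untagged strains, was 2.72 for VTC1, 1.23 for VTC4, 1.43 for PHO81 and 2.52 for PHM6. For rad6Δ tagged against rad6Δ untagged and for WT tagged against WT untagged, the log2 differences were 0.99 and -1.73 for VTC1, -0.06 and -1.30 for VTC4, -0.08 and -1.52 for PHO81 and -0.14 and -2.66 for PHM6. All rad6Δ tagged libraries were above all rad6Δ untagged ones for VTC1. Every background is 1 strain per genotype, so the tags and anything else that separates those strains cannot be told apart.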

How the results depend on the processing

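Of 57 calls for the members, 56 held with the replicate block, 54 with RLE normalization, 54 with DESeq2, 53 without the low-count filter, 52 with K. lactis scaling, 47 of 49 in unstranded counts, 47 of 55 in fits of the compared groups only, and 247 of 366 refits without 1 library. Over the 83 values called in at least 1 fit, 877 of 1093 other fits kept direction and side of the threshold, 144 lost a call, 71 gained one and 1 reversed. The reversal was sense PHM8 in rad6-R6Q against WT tagged, 0.42 in the stranded counts and -0.00770 in the unstranded ones. Among 103 values called in no fit, 40 changed sign somewhere, the largest at log2 0.487.

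Members called on the sense strand numbered 2 in rad6Δ tagged against WT tagged (5 with the replicate block, 5 with the compared groups only, 2 to 4 without 1 library), 1 in rtf1-AAA (2 with K. lactis scaling, the block, unstranded counts or DESeq2, 1 to 2 without 1 library), 3 in rad6-R6Q (1 with the compared groups only, 1 to 3 without 1 library) and 2 in rad6-R6A,M10A (1 to 3). Without 1 library they were 8 to 9 in rad6Δ untagged, 5 to 8 in H2B-K123R and 4 to 7 between the wild types. Against the deletions they were 5 in H2B-K123R (2 to 4), 1 in rtf1-AAA (1 to 2, and 2 with RLE, K. lactis scaling, the block, unstranded counts, the compared groups only or DESeq2), 5 in rad6-R6Q (2 to 5, and 3 with the compared groups only), 2 in rad6-R6A,M10A (0 to 3, and 4 with the block) and 4 for the interaction (0 to 4). Antisense members called were 3 in rad6Δ tagged (0 to 3), 2 in rad6Δ untagged (0 to 2, 3 with the block, and 4 with the compared groups only), 1 in H2B-K123R (0 to 1), 0 in rtf1-AAA (0 to 2, and 1 with K. lactis scaling), 1 in rad6-R6Q (0 to 1, 2 with the block, and 0 with RLE, K. lactis scaling, no filter, the compared groups only or DESeq2), 1 in rad6-R6A,M10A (0 to 1, and 0 with no filter, the compared groups only or DESeq2) and 0 between the wild types (0 to 1). The all-gene shares printed with the main counts do not apply to these other fits. The next paragraph gives all-gene totals for some of them, and no change in a member count is read as particular to the members. The cause of these changes was not tested.

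Over all genes, the compared groups alone gave 803 calls in place of 1419 in rtf1-AAA and 842 in place of 1685 in rad6-R6Q against WT tagged, and 466 in place of 830 and 339 in place of 951 against rad6Δ tagged. For H2B-K123R against rad6Δ untagged K. lactis scaling gave 1288 in place of 609. Between the wild types unstranded counts gave 63 and K. lactis scaling 26 in place of 39. Between the deletions the block gave 7, the compared groups only 5 and DESeq2 30 in place of 12, and for the interaction these gave 26, 31 and 40 in place of 16. Leaving out 1 library gave 12 to 34 between the wild types, lowest without WT tagged replicate 3 and then WT untagged replicate 1 (14), 0 to 13 between the deletions, with 3, 2 and 0 without rad6Δ untagged replicates 1, 2 and 3 and 1 without rad6Δ tagged replicate 2, and 0 to 21 for the interaction. Against the deletions it gave 337 to 475 in H2B-K123R, 532 to 789 in rtf1-AAA, 531 to 1316 in rad6-R6Q and 261 to 434 in place of 495 in rad6-R6A,M10A, and on the antisense strand 65 to 136 between the wild types. Antisense calls were 516 with the compared groups only in place of 779 in rtf1-AAA, and 115 with K. lactis scaling or 114 with DESeq2 in place of 190 between the wild types. Genes that rose and fell were 1861 and 641 with K. lactis scaling in rad6Δ tagged in place of 1244 and 1169, 1601 and 803 in rad6Δ untagged in place of 1291 and 1185, 572 and 858 in H2B-K123R in place of 809 and 712, 1626 and 233 in rtf1-AAA in place of 690 and 729, 1572 and 315 in rad6-R6Q in place of 843 and 842, and 1413 and 283 in rad6-R6A,M10A in place of 695 and 764.

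With the replicate block, PHM6 in rtf1-AAA was 0.82 (adjusted p = 0.0198), VTC4 in rtf1-AAA against rad6Δ tagged 0.49 (adjusted p = 0.00522) and PHO86 between the wild types -0.50 (adjusted p = 0.0158), all gained, and VTC1 in H2B-K123R -0.78 (adjusted p = 0.0603), the 1 call lost. In the comparisons where the numbers did not pair the libraries, r of a pair reached down to -0.54. Taken over all groups, 15 of 24 libraries correlated best, on average, with the libraries of their own number in the other groups.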

Other observations

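PHO84, the high-affinity phosphate transporter that depends on Pho86, had higher means in the substitution strains than in the deletions. It was at 52.5 ± 28.9 CPM in rad6-R6A,M10A, 42.0 ± 14.2 CPM in rad6-R6Q and 25.5 ± 6.04 CPM in rtf1-AAA, against 3.91 ± 0.738 CPM in rad6Δ tagged (SD, n = 3), and at 75.6 ± 38.5 CPM in H2B-K123R, against 4.01 ± 1.23 CPM in rad6Δ untagged. By edgeR's quasi-likelihood test it was higher in rtf1-AAA, at log2 2.7 ± 0.64 (SE, adjusted p = 0.00788), in rad6-R6Q, at log2 3.41 ± 0.63 (SE, adjusted p = 0.00124), in rad6-R6A,M10A, at log2 3.74 ± 0.63 (SE, adjusted p = 0.000892), and in H2B-K123R, at log2 4.21 ± 0.62 (SE, adjusted p = 0.000249). The first 3 comparisons share the rad6Δ tagged libraries. The RAD6 deletion effects in the tagged and untagged backgrounds differed by 3.59 ± 0.93 (SE, adjusted p = 0.158), which was not called.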
